A study of Mus musculus with 24 samples.

Results

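Usp18 and 8 other genes that interferon induces (Isg15, Ifit1, Ifit2, Ifit3, Irf7, Oasl2, Rsad2 and Irgm1) were examined in the livers of mice fed 4 diets. They were matched by symbol, through the platform annotation of the arrays. These genes, and the gene lists below, were chosen with earlier results of these data known. Shares of all genes set beside them are therefore a description and no test. Of the 9 genes, 8 had a probe set that names them alone (3 for Rsad2, 10 in all), among 18193 genes with such a probe set. The probe set for Isg15 is also annotated to Gm9706, so no value is given for Isg15. Oasl2 lay above the filter level, a log2 value of 3.147, in 1 of 24 arrays and did not pass the filter of 6 arrays, which left 7 genes that were tested among 13384 genes.

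All mice were females of strain NMR-1, 8 weeks old at the start, and each of the 4 diets was given for 2 weeks to 6 mice, 3 in each of 2 batches. The pellet group stayed on the feed of its rearing. The chimpanzee group received fruit, vegetables and yogurt, as given to captive chimpanzees, the cafeteria group cooked meals from a staff canteen, and the fast food group nothing but fast food. The cafeteria and fast food groups together are called human diets, and the study asked how such diets change liver expression relative to the chimpanzee diet. RNA came from whole liver, 1 array a mouse, so that every cell type of the organ contributed.

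Type I interferon binds a receptor of IFNAR1 and IFNAR2, whose kinases JAK1 and TYK2 start a signal to the nucleus. There the interferon-stimulated response element (ISRE) in the promoters of antiviral genes is bound and the genes are switched on. In the liver, hepatocytes, endothelial cells and the resident macrophages (Kupffer cells) all respond. USP18 ends the response: it removes the ubiquitin-like protein ISG15 from its targets and blocks the receptor at IFNAR2.

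The promoters were searched for the ISRE core as a description, and its part in the members' differences was not tested. RefSeq windows from 250 bases before to 50 after the start site (GRCm38.p6) were matched by symbol for 8 of the 9 genes, all but Usp18. The core GAAANNGAAA, searched on both strands with overlapping matches counted, was found for 5 of these 8 genes (Isg15, Ifit1, Ifit3, Rsad2 and Irgm1), against 3.44% of all 32851 windows. The gamma-activated site TTCNNNGAA was found for 1 gene, Ifit2, in the first of its 2 windows, against 8.3% of all windows. Neither motif was in the windows of Irf7 and Oasl2. The first match began 78 bases before the start site in Isg15, 104 in Ifit1, 156 in Ifit3, 120 in Rsad2 and 30 in Irgm1. The stretches with the matches and 20 bases on each side read 5′ to 3′ in the direction of the gene, with the core in capitals (as its reverse complement in Ifit1, Ifit3 and Rsad2).

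Isg15, chr4:156200855-156200916, minus strand: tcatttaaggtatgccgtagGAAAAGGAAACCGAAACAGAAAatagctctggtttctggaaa

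Ifit1, chr19:34640765-34640833, plus strand: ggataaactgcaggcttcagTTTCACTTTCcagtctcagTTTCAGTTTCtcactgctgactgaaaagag

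Ifit3, chr19:34583353-34583436, plus strand: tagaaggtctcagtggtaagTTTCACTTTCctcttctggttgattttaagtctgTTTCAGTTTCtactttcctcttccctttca

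Rsad2, chr12:26456543-26456592, minus strand: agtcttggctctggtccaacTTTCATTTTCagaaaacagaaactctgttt

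Irgm1, chr11:48871415-48871470, minus strand: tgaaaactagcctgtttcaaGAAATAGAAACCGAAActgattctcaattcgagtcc

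Ifit1 and Ifit3 carry the same pair of cores in the same order, one beginning TTTCAC and the next TTTCAG on the printed strand. Isg15 and Irgm1 have runs of cores that overlap. These are matches of letters in a window, and no binding was measured.

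Liver identity was plain in every group, with a mean log2 level of 4 hepatocyte markers between 12.23 and 12.66 in all mice. The arrays did not share 1 range of values: their 90th percentile was 6.51 ± 0.07 (SD, n = 12) in batch 1 and 6.05 ± 0.20 in batch 2. RNA quality moved with diet. The log2 difference between the 3′ and 5′ control probe sets of beta-actin, which grows as RNA is degraded, was 0.75 ± 0.14 (SD, n = 6) with pellet, 1.08 ± 0.15 with the chimpanzee diet, 0.91 ± 0.05 with cafeteria food and 0.80 ± 0.13 with fast food. All levels below are log2 expression, and differences carry their standard error (SE). Adjusted p-values are those of limma over all genes tested, with batch as a covariate. Shares of all genes called refer to the adjusted p. No share of all genes is given for an unadjusted p under 0.05, so counts at that level only describe the genes counted. The labels do not state cages or litters. The study spread littermates evenly over the diet groups, but the labels do not tell which mice were littermates, so the fit leaves litter out. The p-values measure the spread between these mice.

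Usp18 showed the largest differences from pellet among the 7 tested members. Its level ran from 4.49 to 5.51 with a median of 5.01 in pellet mice. It ran from 3.44 to 4.32 (median 3.61) with the chimpanzee diet and from 3.38 to 4.45 (median 3.81) with fast food. Every mouse of these 2 diets lay below every pellet mouse, over all mice and within each batch. In cafeteria mice it spread from 3.31 to 5.77 (median 4.20), across the range of all other groups. Over the 4 diets Usp18 was the 1 member of 7 that differed (F = 8.49, adjusted p = 0.0113), where 9% of all genes were called. A further 4 members had an unadjusted p under 0.05, Rsad2 with the smallest adjusted p among them (0.056). Single mice moved this count of 1: it was 5 without the third cafeteria mouse of batch 2, 4 without the first, and 2 without the second cafeteria mouse of batch 2, the third cafeteria mouse of batch 1, the third chimpanzee mouse of either batch, the first fast food mouse of batch 1 or the second of batch 2. Over all genes, 1204 were called with all mice. Without the third or the first cafeteria mouse of batch 2 it was 1710 or 1565, and in the other fits named 1035 to 1526.

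**Figure D1:**
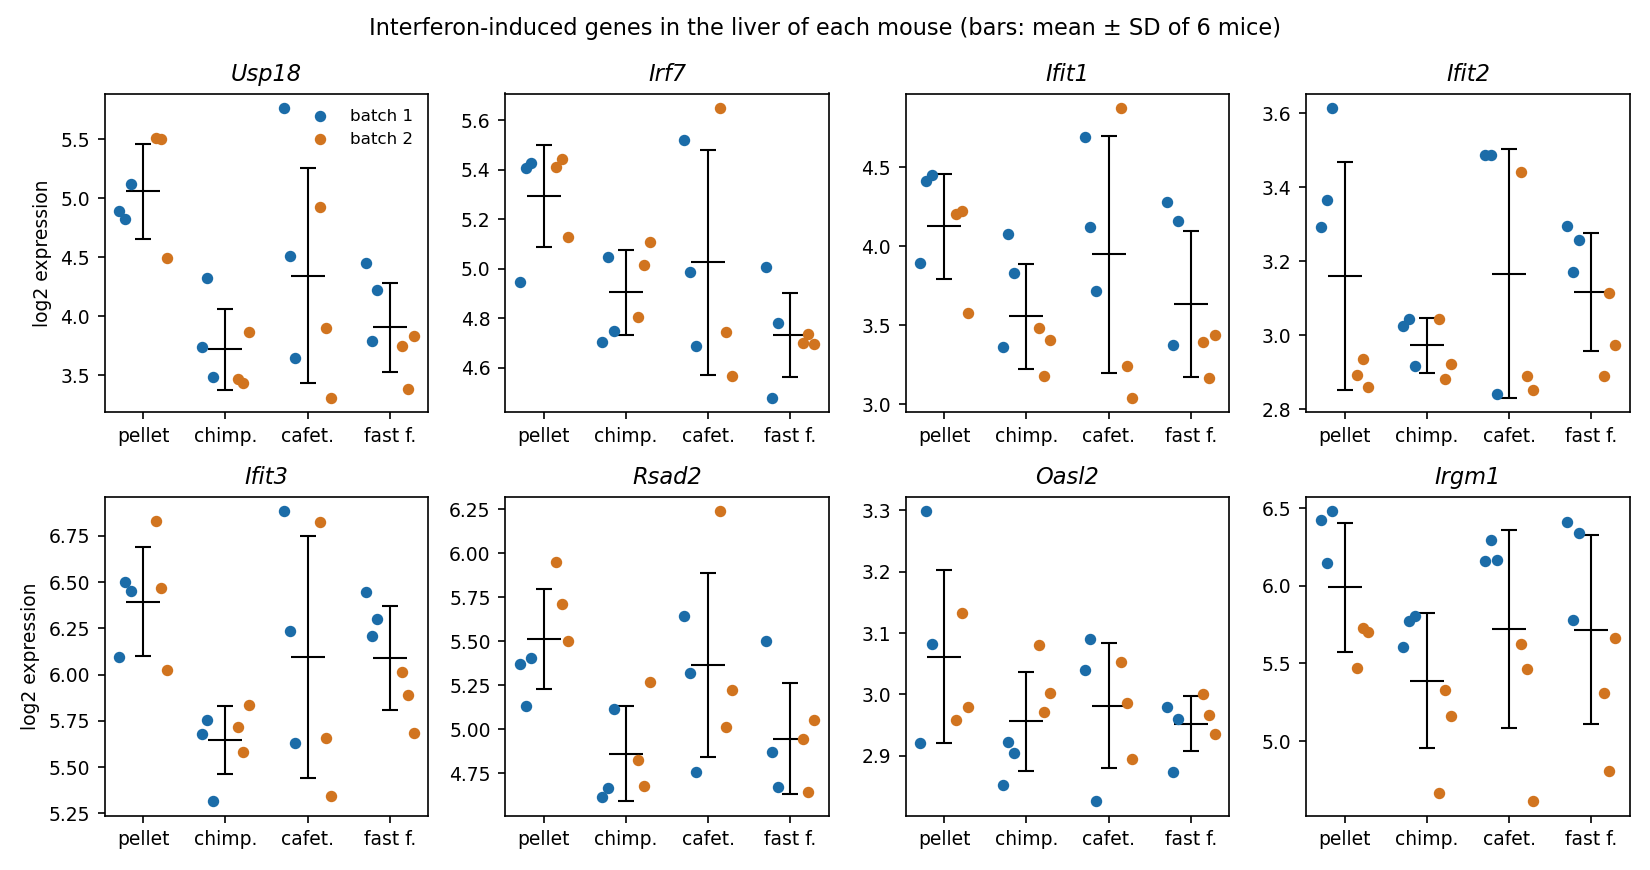
Log2 expression of 8 interferon-induced genes (vertical axes, each with its own range) in every mouse of the pellet, chimpanzee, cafeteria and fast food diets, with points coloured by batch and bars for the mean ± SD of 6 mice. Usp18 with the chimpanzee diet (3.44 to 4.32) and with fast food (3.38 to 4.45) lies wholly below the pellet mice (4.49 to 5.51), and the cafeteria mice spread widest.

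The largest number of members moved between the chimpanzee and pellet diets. Of the 7 tested, 4 passed the test and all 4 were lower with the chimpanzee diet, beside 10.4% of all genes called in either direction and 7.43% called lower. The median difference over the 7 members was -0.60, and over all genes -0.0044. Every chimpanzee mouse lay below every pellet mouse for 2 members, Usp18 and Ifit3, where 2.35% of all genes did so. In whole liver, fewer cells of a type and less RNA per cell cannot be told apart, here and in every result below.

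Usp18, the brake on the receptor, was 2.53-fold lower with the chimpanzee diet (log2 difference -1.34 ± 0.29, adjusted p = 0.00338). The difference was -1.10 in batch 1 and -1.58 in batch 2. It passed the test with each of 24 mice left out in turn, at adjusted p-values of 0.00068 to 0.0117.

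The IFIT proteins bind viral RNA and form a complex, and they are among the genes that interferon induces most strongly. Ifit3 ran from 5.32 to 5.83 (median 5.70) in chimpanzee mice and from 6.03 to 6.83 (median 6.46) in pellet mice. The groups did not overlap in either batch, and Ifit3 was 1.68-fold lower with the chimpanzee diet (-0.75 ± 0.21, adjusted p = 0.0233). Differences of -0.77 and -0.73 in the 2 batches were close to each other. A near-identical paralog, Ifit3b, has no probe set of its own among those analysed here, so its transcripts may contribute to this value.

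Ifit1 ran from 3.18 to 4.08 (median 3.45) in chimpanzee mice and from 3.58 to 4.45 (median 4.21) in pellet mice, with overlap. Its difference of -0.57 ± 0.24 missed the threshold (adjusted p = 0.147). Ifit2 lay near the filter level, above it in 9 of 24 arrays, with 2.88 to 3.05 in chimpanzee mice and 2.86 to 3.61 in pellet mice (-0.19 ± 0.12, adjusted p = 0.373). The higher pellet values of Ifit2 all came from batch 1, and in batch 2 its difference was 0.05.

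Rsad2 encodes viperin, an enzyme that makes a nucleotide which stops viral RNA synthesis. It ran from 4.62 to 5.27 (median 4.75) in chimpanzee mice and from 5.13 to 5.95 (median 5.45) in pellet mice. The groups overlapped over all mice and were apart within each batch, and Rsad2 was 1.57-fold lower with the chimpanzee diet (-0.65 ± 0.19, adjusted p = 0.0295). Of its other 2 probe sets, each tested as a feature of its own, 1 gave -0.35 ± 0.09 (adjusted p = 0.0172) and 1 gave -0.17 ± 0.11 (adjusted p = 0.384). Both had lower mean levels, 3.50 and 3.21 against 5.17, nearer to the filter level.

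Irgm1 encodes a GTPase and answers to interferon gamma above all. Its level followed the batch: pellet mice had 6.35 ± 0.18 (SD, n = 3) in batch 1 and 5.63 ± 0.14 in batch 2, and chimpanzee mice 5.73 ± 0.11 and 5.05 ± 0.34. Within each batch every chimpanzee mouse lay below every pellet mouse. With batch in the fit Irgm1 was 1.52-fold lower (-0.60 ± 0.16, adjusted p = 0.0158), and it passed the test with any 1 of 24 mice left out. With batch left out of the fit it did not (adjusted p = 0.378).

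Irf7, the transcription factor that amplifies type I interferon production, ran from 4.71 to 5.11 (median 4.91) in chimpanzee mice and from 4.95 to 5.44 (median 5.41) in pellet mice. The groups overlapped, and the difference of -0.39 ± 0.15 did not pass (adjusted p = 0.121). Oasl2, which is related to the oligoadenylate synthetases, lay between 2.85 and 3.08 in chimpanzee mice and between 2.92 and 3.30 in pellet mice. In a fit without a filter on low values its difference was -0.11 ± 0.06 (adjusted p = 0.412), and values this near the floor of the arrays bound what could be seen.

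The RNA quality measure bears on these calls. With the beta-actin difference of each array as a covariate, 0 of the 7 members passed for chimpanzee against pellet by limma, and the count over all genes was 211 in place of 1387. Usp18 then differed by -1.42 ± 0.43 (adjusted p = 0.117) and Ifit3 by -1.01 ± 0.31 (adjusted p = 0.117). Irgm1 differed by -0.70 ± 0.24 (adjusted p = 0.172) and Rsad2 by -0.60 ± 0.29 (adjusted p = 0.442). The difference grew for 3 of the 4 genes and shrank for Rsad2, and the SE was larger for all 4. Single mice mattered for Ifit3 and Rsad2: Rsad2 passed with 16 of 24 mice left out in turn and Ifit3 with 22. Without the first pellet mouse of batch 2 the count was 2 in place of 4, with Usp18 and Irgm1 past the threshold, beside 1256 of all genes in place of 1387.

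**Figure D2:**
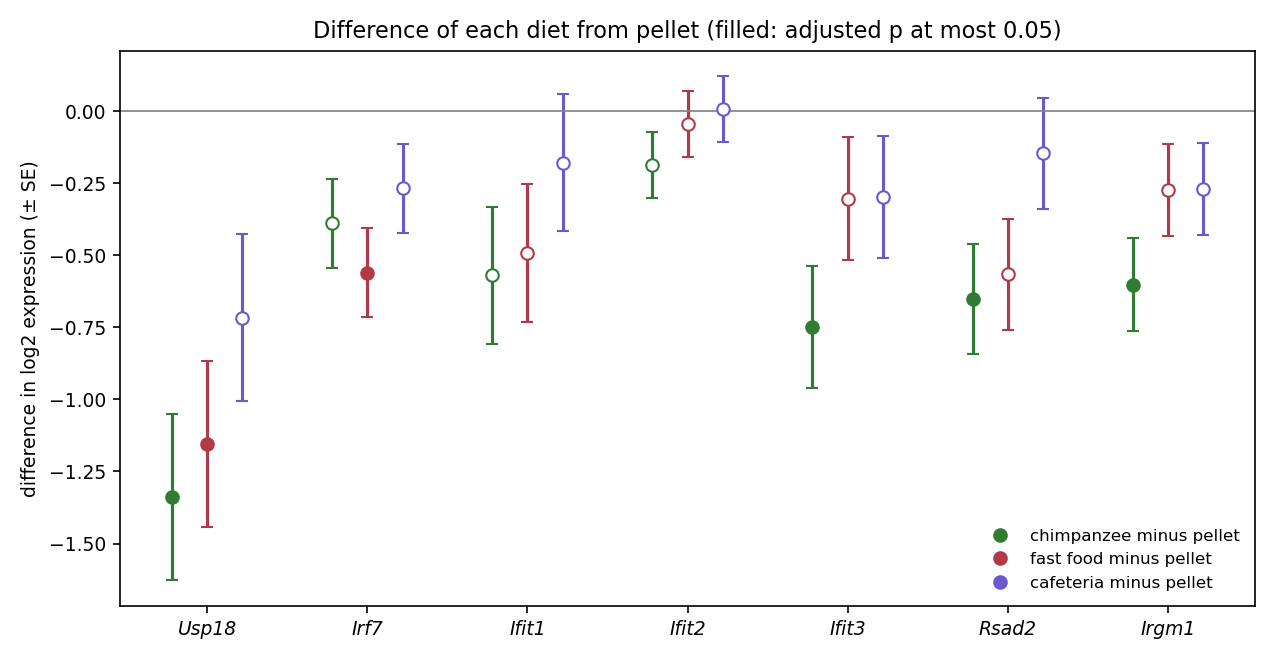
Difference in log2 expression from the pellet diet (vertical axis, with its SE) for the 7 tested members under the chimpanzee, fast food and cafeteria diets, all 3 set against the same 6 pellet mice. Filled points passed an adjusted p of 0.05: Usp18, Ifit3, Rsad2 and Irgm1 for the chimpanzee diet, and Usp18 and Irf7 for fast food.

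Fast food lowered 2 members relative to pellet, Usp18 and Irf7, beside 3.4% of all genes called and 1.74% called lower. Usp18 was 2.23-fold lower (-1.15 ± 0.29, adjusted p = 0.0220), with -0.79 in batch 1 and -1.52 in batch 2. It was the 1 member with every fast food mouse below every pellet mouse, where 0.785% of all genes showed this. Irf7 ran from 4.48 to 5.01 (median 4.72) with fast food, overlapping pellet over all mice and lying apart in batch 2, and was 1.47-fold lower (-0.56 ± 0.15, adjusted p = 0.0426).

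The other members were lower by less or with more spread. Rsad2 ran from 4.64 to 5.50 (median 4.91) with fast food and differed from pellet by -0.57 ± 0.19 (adjusted p = 0.128). Ifit1 ran from 3.16 to 4.28 (median 3.42) and differed by -0.49 ± 0.24 (adjusted p = 0.412). Ifit3 (5.69 to 6.45), Irgm1 (4.81 to 6.41) and Ifit2 (2.89 to 3.29) differed by -0.30, -0.27 and -0.044, none of them past the threshold.

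The median over the 7 members was -0.49, against -0.0029 over all genes. With the beta-actin covariate both calls held, Usp18 at an adjusted p of 0.0280 and Irf7 at 0.0355. Single mice decided them: the count fell to 0 without the second fast food mouse of batch 1, without the second fast food mouse of batch 2, or without the first or the second pellet mouse of batch 2. It was 1, Usp18, without any 1 of 7 further mice: the second chimpanzee and cafeteria mice of batch 1, the third fast food mouse of batch 1, the first or the third fast food mouse of batch 2, and the second or the third pellet mouse of batch 1. Over all genes, 455 were called with all mice, 354 to 477 where the member count was 0 and 350 to 432 where it was 1.

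With cafeteria food no member passed the test against pellet by limma, beside 4.8% of all genes, and 1 member, Usp18, had an unadjusted p under 0.05. Usp18 was 1.64-fold lower on average (-0.72 ± 0.29, adjusted p = 0.204). No member had every cafeteria mouse below every pellet mouse, where 1.1% of all genes did. The median over the 7 members was -0.27, and -0.0089 over all genes.

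The spread within the cafeteria group was wide for most members: the SD of Usp18 was 0.91, against 0.34 to 0.40 in the other diets, and that of Ifit3 0.66 against 0.18 to 0.29. In batch 1, Usp18 was 5.77, 4.51 and 3.64 in the 3 cafeteria mice. In batch 2 it was 4.92, 3.90 and 3.31. By the ranges over both batches, the middle mouse of batch 1 (4.51) lay among the pellet mice and that of batch 2 (3.90) among the chimpanzee mice. Set against its own batch, 1 mouse of each batch stood within or above the range of the pellet mice. Another stood within or below that of the chimpanzee mice of its batch. The same mice held these places for Ifit3 and Irf7: Ifit3 was 6.88 and 6.83 in the 2 high mice and 5.63 and 5.35 in the 2 low ones, and Irf7 was 5.52 and 5.65 against 4.69 and 4.57. Irgm1 did not follow in batch 1, where the 3 mice had 6.16, 6.30 and 6.17 in the same order, and the lowest Rsad2 of batch 2 was in the second mouse (5.01), not the third (5.22). Leaving out the high mouse of batch 1 brought Usp18 to -0.99 against pellet with an adjusted p of 0.0222, and the count of members called to 1. Over all genes 588 were then called, against 643 with all mice.

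Pooled as human diets, cafeteria and fast food gave 0 members called against pellet by limma, beside 4.98% of all genes, with 2 members at an unadjusted p under 0.05. Usp18 ran from 3.31 to 5.77 (median 3.86, n = 12) and was 1.91-fold lower (-0.94 ± 0.28, adjusted p = 0.0587). Irf7, the other of the 2, differed by -0.41 ± 0.15 (adjusted p = 0.157). The result for Usp18 lay at the threshold: without the first cafeteria mouse of batch 1 its adjusted p was 0.00532 and the count was 1, and without the first cafeteria mouse of batch 2 they were 0.0240 and 2, with Irf7 as the second gene. Over all genes 606 and 783 were called in these 2 fits, against 666 with all mice of the comparison.

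The comparison the study was built around, human diets against the chimpanzee diet, called none of the 7 members by limma, beside 1.49% of all genes. Ifit3 (0.45 ± 0.19, adjusted p = 0.259) and Irgm1 (0.33 ± 0.15, adjusted p = 0.306) had an unadjusted p under 0.05. Usp18 was 1.32-fold higher with the human diets (0.40 ± 0.26, adjusted p = 0.522), and Irf7 differed by -0.025 ± 0.15. The median over the 7 members was 0.29, against 0.0040 over all genes.

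Cafeteria against chimpanzee gave 0 members called by limma, where 1.26% of all genes were called. An unadjusted p under 0.05 was found for 4 members. They were Rsad2 (0.50 ± 0.19, adjusted p = 0.262), Usp18 (0.62 ± 0.29, adjusted p = 0.407), Ifit3 (0.45 ± 0.21, adjusted p = 0.417) and Irgm1 (0.33 ± 0.16, adjusted p = 0.432). Fast food against chimpanzee gave 0 called (2.03% of all genes) and 1 at an unadjusted p under 0.05, Ifit3. Cafeteria against fast food gave 0 called (0.00747% of all genes) and 1 at an unadjusted p under 0.05, Rsad2. These comparisons share their chimpanzee or human diet mice with each other. A missed threshold does not show equal levels, and for Usp18 each difference between 2 diets carried an SE of 0.29. That SE rests on 1 spread shared by the 4 diets, while the SD of Usp18 was 0.91 with cafeteria food and 0.34 to 0.40 in the others. It may be too small for differences that involve cafeteria food and too large for the others.

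The test of the diet-by-batch interaction called 0 of 7 members by limma, with 0 at an unadjusted p under 0.05, beside 0% of all genes. Usp18, Ifit3, Rsad2 and Irgm1 were lower with the chimpanzee diet than with pellet in both batches. Tested alone, batch 1 called 1 of the 7 members for that comparison and batch 2 called 0, from 3 mice a diet. Over all 13384 genes the 2 batches alone called 1060 and 25, so neither member count is a result about the members.

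Within diets, the members rose and fell together from mouse to mouse. After the mean of each diet within each batch was taken away, the 21 pairs among the 7 members had Pearson correlations from 0.21 to 0.93 over the 24 mice, with a median of 0.72. Ifit1 and Irf7 were the closest pair. Among 13383 other genes, the 5 most like Usp18 were Ifit3 (r = 0.89, Spearman's rho = 0.81), Irf7 (r = 0.87, rho = 0.80), Gbp6 (r = 0.86, rho = 0.82), Meak7 (r = 0.84, rho = 0.76) and Ifit1 (r = 0.83, rho = 0.84). Ifit2 stood at rank 51 (r = 0.72) and Rsad2 at rank 67 (r = 0.70).

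Irgm1 was the exception, at rank 1618 (r = 0.41). It followed the 90th percentile of its array more closely (r = 0.78) than any other member did (0.15 to 0.44). These correlations describe 24 arrays processed in 2 batches, and the widest deviations among them were those of cafeteria mice. The first cafeteria mouse of batch 2 was the highest of its diet and batch for 7 of 7 members and the first of batch 1 for 6, while the third mouse of each batch was the lowest for 6. The first fast food mouse of batch 1 was the highest of all 6 fast food mice for 7 of 7 members.

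**Figure D3:**
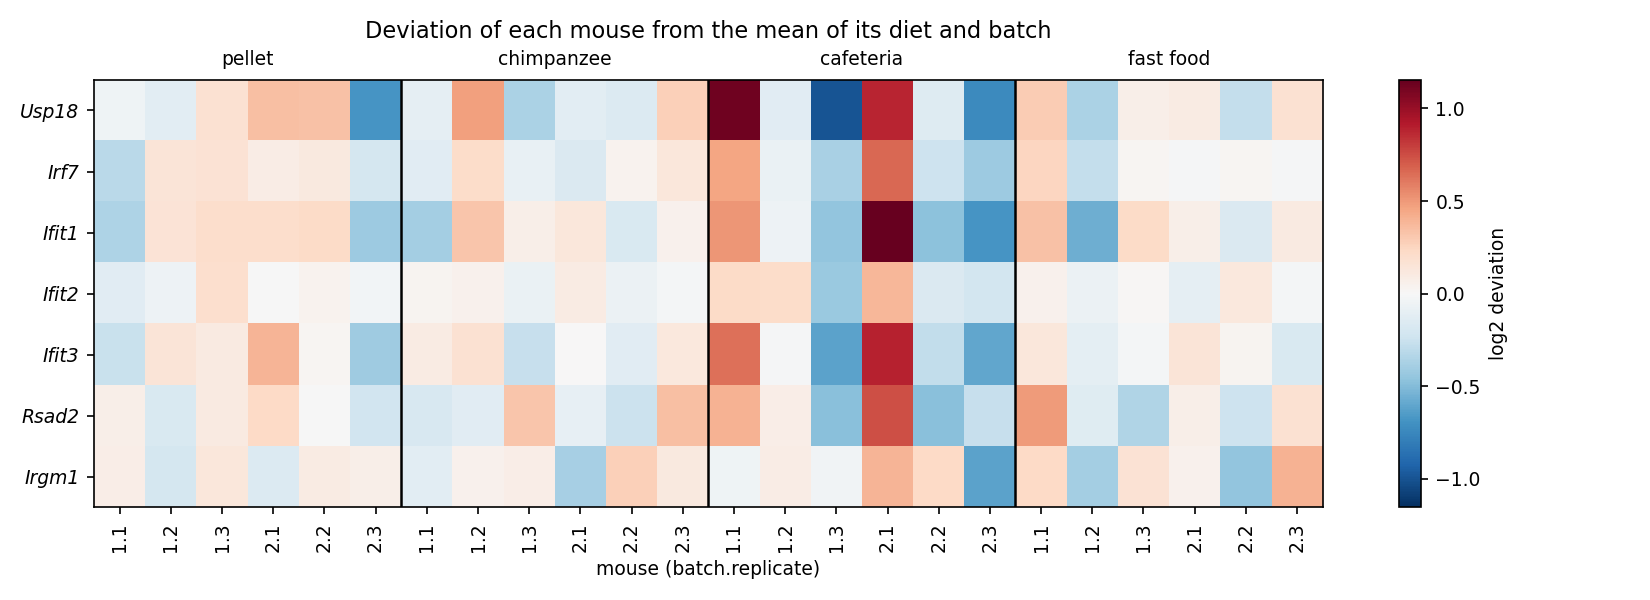
Deviation of log2 expression from the mean of the same diet and batch (colour, red above and blue below) for the 7 tested members (rows) in each of 24 mice (columns, named batch.replicate, in 4 diets). The first cafeteria mouse of each batch is red in nearly every row (median deviations 0.45 and 0.75) and the third is blue in most (medians -0.46 and -0.60).

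The rest of the interferon pathway was read from lists of genes chosen by role, and for chimpanzee against pellet every called gene of these lists was lower with the chimpanzee diet, as were 995 of the 1387 genes called over all. The counts below stand beside the 10.4% called and 7.43% called lower over all genes. RNA quality moved with this comparison, and with the beta-actin covariate 2 interferon pathway genes of the lists still passed, Lgals9 and Irf5. Under that covariate the GTPases had 0 of 8 called by limma, 6 with an unadjusted p under 0.05, and a median difference of -0.62. The GTPases that interferon gamma induces, to which Irgm1 belongs, had 6 of 8 tested genes lower, with a median difference of -0.75. Ifi47 (-0.86 ± 0.14, adjusted p = 0.000193), Gbp7 (-0.78 ± 0.15, adjusted p = 0.00139), Igtp (-0.72 ± 0.15, adjusted p = 0.00221) and Irgm2 (-1.06 ± 0.24, adjusted p = 0.00462) had the smallest p-values. Gbp6, a GTPase among the 5 genes most like Usp18, was also lower (-1.32 ± 0.33, adjusted p = 0.0115).

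Of the other interferon-induced antiviral genes, 10 of 42 were lower and 0 higher, with a median of -0.18. Lgals9, which encodes galectin-9, was 2.01-fold lower (-1.01 ± 0.13, adjusted p = 1.66e-05) and Nmi was also lower (-0.93 ± 0.16, adjusted p = 0.000435). Ifi35, whose protein pairs with NMI, fell by 0.53 (SE 0.10, adjusted p = 0.000870) and Bst2, encoding tetherin, by 0.66 (SE 0.16, adjusted p = 0.00735).

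Of 13 sensors of nucleic acids and their adaptors, 3 were lower and 0 higher, with a median of -0.16. Ifih1, which encodes MDA5, was 1.79-fold lower (-0.84 ± 0.22, adjusted p = 0.0147). Dhx58, which encodes LGP2 (-0.40 ± 0.11, adjusted p = 0.0240), and Ddx58, which encodes RIG-I (-0.33 ± 0.10, adjusted p = 0.0350), were the others. These 3 are the helicases of 1 family, and they are themselves induced by interferon.

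Upstream, the receptor and signalling list had 3 of 11 genes lower: Il10rb, a subunit of the interferon lambda receptor (-0.38 ± 0.11, adjusted p = 0.0265), Ifngr2, of the interferon gamma receptor (-0.32 ± 0.09, adjusted p = 0.0268), and Tyk2 (-0.31 ± 0.09, adjusted p = 0.0365). Of 10 regulatory factors and inhibitors, Irf5 was the 1 called, at -0.33 ± 0.08 (adjusted p = 0.00949), and it was also lower than pellet with cafeteria food (-0.32 ± 0.08, adjusted p = 0.0201) and fast food (-0.30 ± 0.08, adjusted p = 0.0388). The 4 tested genes of ISG15 conjugation, the process that USP18 reverses, gave 0 calls by limma and 1 unadjusted p under 0.05, with a median of -0.15.

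The interferon genes themselves gave 0 calls by limma in 5 tested genes and 0 unadjusted p under 0.05, with a median difference of 0.054. Their mean log2 level was 3.34 ± 0.24 (SD, n = 6) with pellet and 3.39 ± 0.26 with the chimpanzee diet, near the filter level, and in every diet its mean was higher in batch 2. At such levels the arrays bound what a liver sample can say about interferon transcripts.

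Fewer genes of these lists were called with the other diets. Against pellet, fast food gave 1 of 8 GTPases, 2 of 42 antiviral genes and 1 of 10 regulatory factors (3.4% of all genes). Cafeteria food gave 2 of 42 antiviral genes, 1 of 13 sensors and 1 of 10 regulatory factors (4.8% of all genes). Counts this small or this near the share over all genes are no result about the lists. Fast food lowered Irgm2 (-1.01 ± 0.24, adjusted p = 0.0148), Lgals9 (-0.54 ± 0.13, adjusted p = 0.0169) and Oasl1 (-0.39 ± 0.10, adjusted p = 0.0263) relative to pellet, beside Irf5. Cafeteria food lowered Lgals9 (-0.64 ± 0.13, adjusted p = 0.00305), Lgals3bp (-0.48 ± 0.14, adjusted p = 0.0459) and Ddx58 (-0.35 ± 0.10, adjusted p = 0.0450). Set against the chimpanzee diet, Nmi was higher with the human diets (0.73 ± 0.16, adjusted p = 0.0222) and with fast food (0.84 ± 0.16, adjusted p = 0.00699), and Ifi47 was higher with cafeteria food (0.73 ± 0.14, adjusted p = 0.00664). These calls were 1 of 42, 1 of 42 and 1 of 8 listed genes, beside 1.49%, 2.03% and 1.26% of all genes. Lgals9 and Irf5 lay below pellet in all 3 new diets, each of which was set against the same pellet mice.

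Kupffer cell markers moved in the same direction. For chimpanzee against pellet, 4 of 7 were lower: Cd68 (-0.68 ± 0.13, adjusted p = 0.00144), Csf1r (-0.69 ± 0.20, adjusted p = 0.0297), Clec4f (-0.78 ± 0.23, adjusted p = 0.0317) and Vsig4 (-1.16 ± 0.38, adjusted p = 0.0490). The median over the 7 was -0.68, and all 7 lay above the filter level in every mouse. Their mean log2 level ran from 5.90 to 6.61 in pellet mice, from 5.15 to 6.19 in chimpanzee mice, from 5.11 to 6.58 in cafeteria mice and from 5.79 to 6.73 in fast food mice. With the beta-actin covariate 1 of the 7 passed, Cd68, and their median was -0.79. Against pellet, 0 of the 7 markers were called by limma with cafeteria food (4 at an unadjusted p under 0.05, median -0.42) and 0 with fast food (0 at an unadjusted p under 0.05, median -0.17). The part of Kupffer cells in the members' differences was not tested. Markers of T and NK cells, plasmacytoid dendritic cells, B cells, neutrophils and sinusoidal endothelium gave 0 calls by limma for chimpanzee against pellet in 3, 3, 1, 1 and 4 tested genes, and an unadjusted p under 0.05 for the 1 B cell gene and the 1 neutrophil gene. Several lay near the filter level of 3.147, which bounds what could be seen. Mean levels were 3.12 for Cd3g, 3.19 for Cd79a, 3.20 for S100a9 and 3.31 for Gzma. Others lay well above it, such as Cd3e (4.78), Klk1 (4.31), Stab2 (6.66) and Clec4g (8.36). Hepatocyte markers differed by a median of -0.058, with 0 of 4 called.

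**Figure D4:**
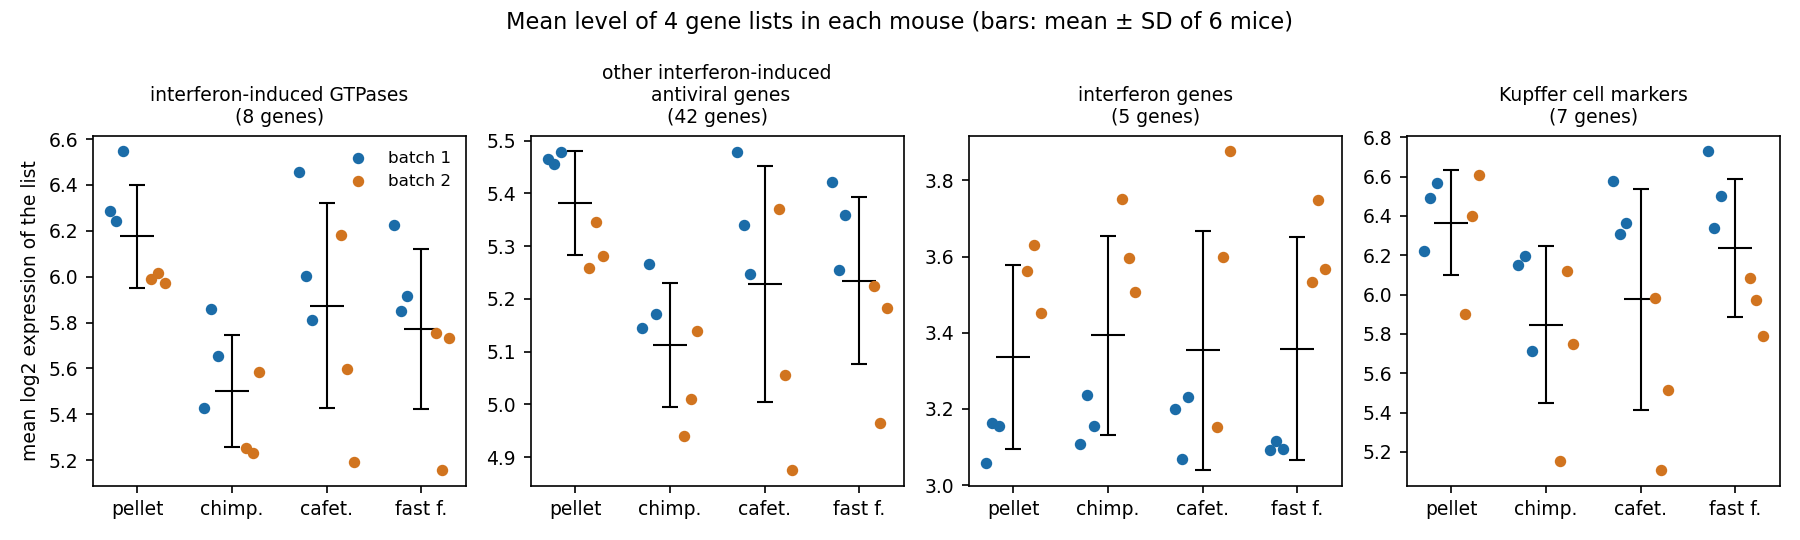
Mean log2 expression over each of 4 gene lists (vertical axes, each with its own range) in every mouse of the 4 diets, coloured by batch, with bars for the mean ± SD of 6 mice. The interferon-induced GTPases (8 genes) and the Kupffer cell markers (7 genes) have their lowest diet means with the chimpanzee diet, while the interferon genes (5 genes) are higher on average in batch 2 in each diet.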

How the data were processed

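Liver RNA of 24 mice was hybridised to Affymetrix mouse genome arrays. The authors deposited log2 values made by rma, 1 per probe set and array, from 1.9 to 13.01. The number of arrays limits the precision. Of 45101 probe sets, 64 controls and 9160 without a gene were set aside, and 932 with several genes were not named. A probe set was used if it exceeded the overall median in 6 or more of 24 arrays, and the one of highest mean stood for its gene. limma 3.58.1 (R 4.3.3) was fitted to diet and batch, and p-values, all two-sided, were adjusted by Benjamini-Hochberg for 13384 genes at 0.05. Pooled human diets were compared in fits of the mice involved, diet pairs in 1 fit of all mice. The fits were tested on simulated data. All members were named, of each list at most 4 called genes a comparison by smallest p, and the 5 genes most like Usp18. The members and lists were chosen with earlier results of these data known. Alternatives covered filters, normalization, covariates, weights, batches, blocks and mice left out.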

Additional observations from a re-analysis of the deposited data

How the results depend on the processing

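Counts of members called changed with the setting, out of 7 tested, and counts over all genes changed too. For chimpanzee against pellet, 1387 genes were called over all. That was 472 with batch left out, 211 with the beta-actin covariate, 1060 in batch 1 alone and 25 in batch 2 alone. For fast food against pellet, 455 were called, and 166 with batch left out, 286 in batch 1 alone and 18 in batch 2 alone. Member counts that moved with these are no result about the members. Chimpanzee against pellet (4 called) gave 1 with batch left out, 1 in batch 1 alone, 0 in batch 2 alone and 0 with the beta-actin covariate, but 6 (Ifit1 and Irf7 added) with array weights or when each pair was fitted on its own mice, and 2 to 5 with each mouse left out. Fast food against pellet (2) gave 1 with no filter on low values, 0 with batch left out, 0 in either batch alone, 3 (Rsad2 added) with quantile normalization, cyclic loess, the 90th percentile or the methods' procedure, and 0 to 3 with each mouse left out. The methods' procedure, after the study's methods, called genes at an unadjusted p under 0.01 and took the probe set of smallest p. Its counts are therefore not like those of the other settings. For Rsad2 it took another probe set here (-0.30 ± 0.09). Human diets against pellet (0) gave 1 with quantile normalization, cyclic loess, the 90th percentile as a covariate, an intensity trend, all 24 mice in the fit or the methods' procedure, 2 with array weights, and 0 to 2 with each mouse left out. Over all genes 666 were called, and 1153, 1207, 1396 and 1322 with quantile normalization, cyclic loess, the 90th percentile and array weights. The count was 612 with an intensity trend, 770 with all 24 mice and 1096 with the methods' procedure. The test over all diets (1) gave 0 in either batch alone or with the beta-actin covariate, 2 with quantile normalization or without the 4 arrays of lowest 90th percentile, 4 with cyclic loess or the 90th percentile, 6 with array weights, and 1 to 5 with each mouse left out. Its count over all genes was 1204, and 746 and 14 in batches 1 and 2 alone and 490 with the beta-actin covariate. It rose to 1915 with quantile normalization, 2108 with cyclic loess, 2322 with the 90th percentile and 2708 with array weights. Without the 4 arrays it was 1752. Array weights gave 2 for human diets and 1 each for cafeteria and fast food against chimpanzee, and leaving out the 4 arrays gave 1 for each of the 3. Over all genes these 3 comparisons called 1272, 549 and 1476 with array weights and 369, 201 and 519 without the 4 arrays. They called 200, 168 and 272 in the main fit. Cafeteria against pellet gave 0 to 1 with each mouse left out. Cafeteria against fast food and the interaction stayed at 0 in all settings run.

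The replicate numbers showed no clear pairing of the mice (12 of 36 same-number correlations over 0.1, 6 of 24 mice closest to their own number). The replicate block gave 1 member, Usp18, for human diets against pellet and 1 for fast food against pellet, beside 613 and 422 of all genes. It changed no other count by over 1.5 times.

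The 42 member differences followed here leave out fast food against chimpanzee and cafeteria against fast food, and most were not called. For chimpanzee against pellet, Usp18 and Irgm1 were called in 13 of 16 settings, Ifit3 in 12 and Rsad2 in 11. For fast food against pellet, Usp18 was called in 13 and Irf7 in 11. Over all 42, 611 of 666 values kept their direction and side of the threshold. Of these values 10 were reversed, and none of the reversed differences was called. Irf7 for human diets against chimpanzee was 0.077 in batch 1, 0.13 with the beta-actin covariate and 0.0096 without the 4 arrays. Ifit2 for cafeteria against pellet was -0.15 in batch 1, -0.00060 with cyclic loess, -0.019 with the beta-actin covariate and -0.049 with array weights. In batch 2, Ifit2 was 0.13, 0.054 and 0.096 for human diets, chimpanzee and fast food against pellet. With each mouse left out, differences near 0 also changed sign: Irf7 ran from -0.099 to 0.018 for human diets and from -0.0078 to 0.22 for cafeteria against chimpanzee, and Ifit2 from -0.078 to 0.10 for cafeteria, -0.064 to 0.044 for human diets and -0.080 to 0.025 for fast food against pellet. The causes were not tested.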
